A study of Homo sapiens with 6 samples.

Results

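The unfolded protein response and the integrated stress response were followed through 32 genes in ovarian carcinoma cells that carried different forms of the signalling protein PEA-15. Members were taken as all probe sets, the groups of short probes that read one transcript region, that the array annotation assigns to exactly 1 of these genes. This gave 65 probe sets for 31 genes, of 54613 probe sets and 19775 genes measured. For SYVN1, the ubiquitin ligase of the degradation branch, the annotation names another gene beside it on its probe set, so no value is given. The 31 genes fall into an endoplasmic reticulum class of 21 (chaperones, folding enzymes, degradation factors, stress sensors and XBP1) and an ATF4-CHOP class of 10.

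RNA was hybridised to 6 Affymetrix HG-U133 Plus arrays, 3 for each of 2 lines made from SKOV3.ip1 cells, derived in turn from SKOV3 human ovarian carcinoma cells by passage in the peritoneal cavity of mice. Both lines had been stably transfected with a PEA-15 vector. The S116A line received a form in which alanine replaced Ser116, so that it cannot be phosphorylated there. The S116D line received a phosphomimetic form with aspartic acid, for which the labels disagree on the residue: Ser116 by the titles, Ser104 with Ser116 by the characteristics and Ser16 by the treatment text. The labels do not say whether a line is 1 clone or whether its 3 arrays came from separate cultures, so p-values reflect array-to-array spread that could be purely technical. Parental and empty-vector cells were not analysed here. Differences below are S116D minus S116A in log2 units. The transcript of PEA15 itself did not pass the test on its brightest probe set, where the S116A arrays read 12.50 to 12.70 and the S116D arrays 12.47 to 12.69. On the dimmer PEA15 probe set the lines did not overlap, at 10.96 to 11.03 against 10.74 to 10.87, a difference of -0.19 that was not called (limma adjusted p = 0.20).

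Unfolded protein in the endoplasmic reticulum is sensed by membrane proteins encoded by ERN1 (IRE1), ATF6 and EIF2AK3 (PERK). IRE1 splices the messenger RNA of XBP1, and XBP1 and cleaved ATF6 then raise the transcription of chaperones, folding enzymes and degradation factors. PERK, like kinases that respond to amino acid shortage, viral RNA and haem loss, phosphorylates eIF2, which lowers general translation and favours translation of ATF4. ATF4 and its target CHOP (DDIT3) then raise genes of amino acid supply, redox defence and, under lasting stress, cell death. Much of this regulation is post-transcriptional, so an array reads the response mainly through its target genes.

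Binding sites of both branches are shown first, because the values of their carriers are compared below. The endoplasmic reticulum stress element (ERSE: CCAAT, any 9 bases, then CCACG) and its variant ERSE-II (ATTGG, any base, then CCACG) are the classical sites of ATF6 and XBP1, and were searched on both strands from 250 bases before to 50 bases after each annotated start. Of 35116 such windows in the RefSeq table (build GRCh38.p14), 0.0769% held ERSE and 0.0541% ERSE-II. Members matched 41 windows of 31 genes by symbol, several starts being listed for some. ERSE or ERSE-II occurred in 10 of the 21 endoplasmic reticulum genes with a window (SYVN1 included, PDIA3 not) and in 0 of the 10 ATF4-CHOP genes, against 0.161% of 27305 genes. Each stretch is written on the gene's own strand, with the element in capitals. Matches lie before the start they were found from, except that the CANX match also crosses another start of that gene. The lines for CANX and PDIA6 are shorter because they lie past another start of the same gene.
HSPA5, chr9:125241376-125241424, minus strand: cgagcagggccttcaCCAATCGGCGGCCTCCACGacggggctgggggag
HSP90B1 distal, chr12:103930201-103930249, plus strand: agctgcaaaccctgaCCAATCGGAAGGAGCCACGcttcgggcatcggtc
HSP90B1 proximal, chr12:103930306-103930354, plus strand: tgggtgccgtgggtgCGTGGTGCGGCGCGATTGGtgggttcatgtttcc
HYOU1 distal, chr11:119057365-119057405, minus strand: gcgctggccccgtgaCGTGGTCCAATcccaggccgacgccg
HYOU1 proximal, chr11:119057259-119057299, minus strand: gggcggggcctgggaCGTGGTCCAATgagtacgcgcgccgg
SDF2L1, chr22:21642099-21642139, plus strand: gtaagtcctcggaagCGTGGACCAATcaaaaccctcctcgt
CRELD2, chr22:49918539-49918587, plus strand: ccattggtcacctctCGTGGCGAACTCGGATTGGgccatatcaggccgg
CALR, chr19:12938369-12938417, plus strand: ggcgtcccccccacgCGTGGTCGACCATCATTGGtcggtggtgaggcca
CANX, chr5:179698773-179698801, plus strand: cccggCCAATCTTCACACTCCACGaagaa
PDIA6, chr2:10812848-10812876, minus strand: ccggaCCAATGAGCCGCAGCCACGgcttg
HERPUD1, chr16:56932010-56932050, plus strand: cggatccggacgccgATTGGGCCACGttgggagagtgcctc
XBP1, chr22:28800588-28800636, minus strand: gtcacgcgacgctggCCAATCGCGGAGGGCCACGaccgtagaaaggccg

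The CCAAT and CCACG ends run in either direction, as CALR and HSPA5 show, and HSP90B1 and HYOU1 held 2 matches each. The C/EBP-ATF response element (CARE, TGATGNAAN), the site of ATF4, was found in 3.61% of all windows. It occurred in 2 of the 10 ATF4-CHOP genes, ASNS and CHAC1, and in HERPUD1 of the endoplasmic reticulum class. Also searched were UPRE (TGACGTGG), found in 0.729% of all windows, and CRE (TGACGTCA), found in 1.85%. Among the members UPRE occurred in HYOU1 alone and CRE in PPP1R15A alone. The ASNS and CHAC1 matches, again in capitals, are given for the same reason.
ASNS, chr7:97872453-97872491, minus strand: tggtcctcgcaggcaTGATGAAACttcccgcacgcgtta
CHAC1, chr15:40953246-40953284, plus strand: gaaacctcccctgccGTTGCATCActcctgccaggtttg
These matches are descriptions of letters near a start and not measurements of binding, and ATF4 sites that lie within introns or farther upstream are outside this window.

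The arrays were closely scaled, with median signals between 7.86 and 7.89. Over all probe sets r was 0.995 to 0.998 within a line and 0.987 to 0.990 between the lines. The first principal component (61.9% of variance) separated the lines. The second (20.3%) set S116A 1, S116A 2 and S116D 1 apart from the other arrays, a division that matches no label. The GAPDH 3′ minus 5′ difference in log2 signal, a sign of RNA quality, was 0.73 to 0.79 on those 3 arrays and 0.65 to 0.71 on the others. Its part in the results was not tested, and results with this division as a block are given where they differ. That block was drawn from these same values. With it 3899 of 19775 genes were called by limma, against 2166 without it. Of the epithelial and ovarian markers KRT8, KRT18, EPCAM and PAX8 read 12.3 to 13.7 in both lines. KRT19 read 12.94 and 10.68 (S116A and S116D), WT1 9.51 and 9.44 and the adhesion gene CDH1 8.87 and 6.06, while MUC16 (6.72 and 6.59) and MSLN (7.67 and 7.34), usual antigens of ovarian carcinoma, were dim. Of the 11 epithelial and ovarian markers 6 fell in S116D, against 4.82% of all genes. These were KRT8, KRT18, KRT19, KRT7, EPCAM and CDH1, by 1.31-fold to 6.99-fold. Their part in the results below was not tested. None of 9 leukocyte markers was called by limma (0 at an unadjusted p under 0.05). PTPRC, the pan-leukocyte CD45 gene, read 6.94 and 7.05, and the brightest were CD3E (9.52 and 9.57) and MS4A1 (8.72 and 8.78). Of 11 fibroblast and endothelial markers KDR was called, lower by 0.43, where 4.82% of all genes were called lower.

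Most members did not differ detectably between the lines. Taking each gene by its brightest probe set, 5 of 31 members passed limma's test (Benjamini-Hochberg adjusted p under 0.05 over all 54613 probe sets, called below), where 11.0% of all genes did. DNAJB9 and VLDLR rose in S116D, at a background of 6.13%, and DNAJC3, EIF2AK3 and STC2 fell, at a background of 4.82%. The members were mostly bright, and among genes above the median signal the background was 17.0%, against 4 of 30 members there. A limma unadjusted p under 0.05 was reached by 13 of the 31 members, against 4667 of all 19775 genes. The median difference was -0.01 over the 31 members and 0.01 over all genes. The remaining 26 members were not called, and for 24 of them the 95% interval of the difference lay inside 1.5-fold in either direction. The exceptions were DDIT4, whose arrays were widely spread, and SDF2L1. For 17 members the values of one line all lay beyond those of the other, against 27.8% of all genes. Of these members 6 were higher (background 15.3%) and 11 lower (12.6%). Above the median signal the count was 16 of 30, against 38.6% of genes there.

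**Figure D1:**
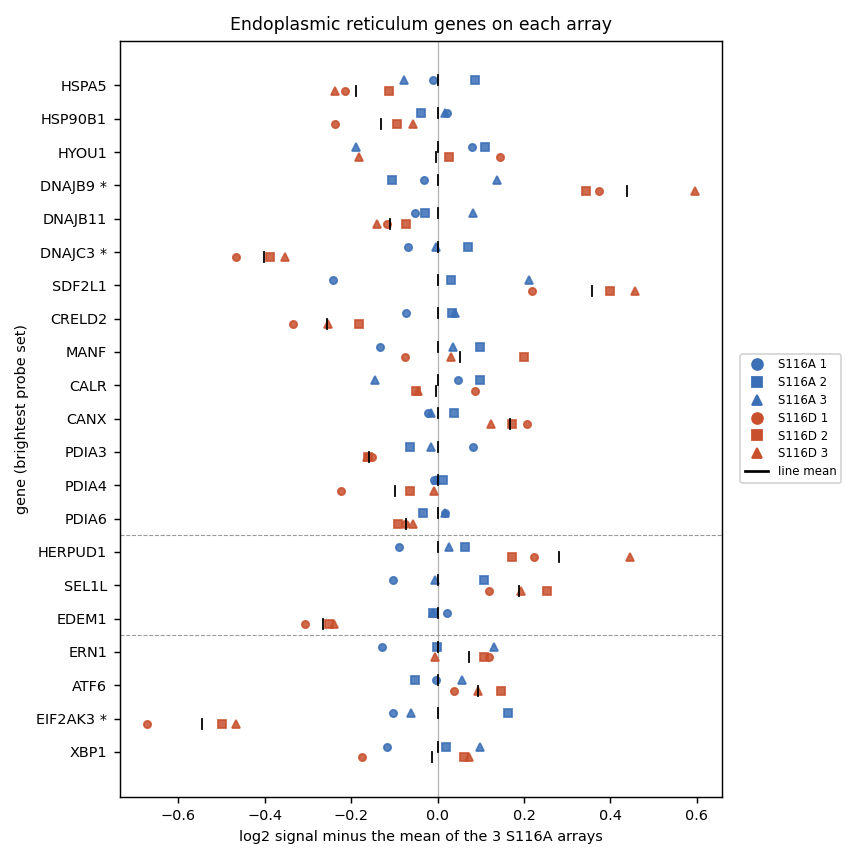
Log2 signal of each of the 21 endoplasmic reticulum genes on its brightest probe set, minus the mean of the 3 S116A arrays. Points are single arrays, with shape giving the replicate number, bars are line means, an asterisk marks a called gene, and dashed lines separate folding genes, degradation genes and sensors. DNAJB9 lies to the right and DNAJC3 and EIF2AK3 to the left of the S116A arrays, while the S116D means of the other genes lie between -0.27 and 0.36.

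Among the sensors, the PERK gene EIF2AK3 was the one whose brightest probe set differed. It read 11.30, 11.56 and 11.34 on the S116A arrays and 10.73, 10.90 and 10.93 on the S116D arrays. Every S116D array lay below every S116A array, and the gene fell by 0.55 ± 0.10 (SE), or 1.46-fold (limma adjusted p = 0.011). The second EIF2AK3 probe set was dim, at 6.59 and 6.61, and differed by 0.03 (95% interval -0.17 to 0.23). On the median of both probe sets the gene was therefore no longer called (-0.26, limma adjusted p = 0.095).

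ERN1, which encodes the IRE1 kinase and RNase, gave readings that depended on the probe set. Its brightest probe set read 8.92, 9.04 and 9.17 in S116A and 9.16, 9.15 and 9.04 in S116D, overlapping, with a difference of 0.07 (limma adjusted p = 0.77). The second probe set read 9.29, 9.08 and 9.23 against 8.56, 8.74 and 8.71, so that the lines did not overlap, and it fell by 0.53 ± 0.09 (limma adjusted p = 0.0070). The third differed by -0.09 and was not called. Probe positions were not used here, so it is not known which transcript forms each reads.

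ATF6 and XBP1, the transcription factors of the folding branch, showed no called difference. ATF6 read 9.91, 9.86 and 9.97 in S116A and 9.95, 10.06 and 10.00 in S116D, overlapping ranges, and none of its 4 probe sets was called by limma (0 at an unadjusted p under 0.05, differences -0.23 to 0.09). XBP1 read 10.72, 10.86 and 10.94 against 10.66, 10.90 and 10.91, again overlapping, so that they differed by -0.01 (95% interval -0.24 to 0.21). Splicing of XBP1 cannot be read from these values.

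The chaperones and folding enzymes numbered 14, of which DNAJB9 rose (background 6.13% of all genes), DNAJC3 fell (4.82%) and 12 were not called. DNAJB9 and DNAJC3 are co-chaperones of BiP that carry a J domain, and DNAJC3 (p58IPK) also inhibits PERK and related kinases. DNAJB9 read 10.65, 10.57 and 10.82 in S116A and 11.05, 11.02 and 11.28 in S116D. The lines were separate, and it rose by 0.44 ± 0.10 (SE), or 1.35-fold (limma adjusted p = 0.032). Its other probe sets differed by 0.45 and 0.23 in the same direction, neither called. The DNAJB9 call was close to the threshold and ended without S116A 1, S116A 2, S116D 2 or S116D 3, at limma adjusted p between 0.070 and 0.12 and differences between 0.36 and 0.48. It also ended on the median of its probe sets. With unshared probe sets preferred, DNAJB9 was read on the probe set that differed by 0.23 and was not called (limma adjusted p = 0.45).

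DNAJC3 read 11.33, 11.47 and 11.39 in S116A and 10.93, 11.01 and 11.04 in S116D. The lines were separate here too, and the gene fell by 0.40 ± 0.08 (limma adjusted p = 0.014), or 1.32-fold. Its other 3 probe sets differed by -0.24 to -0.10, with overlapping lines and no call. Without S116A 2 or S116D 2 its limma adjusted p was 0.060 and 0.063, and on the median of its probe sets the difference was -0.17 (0.42).

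HSPA5 encodes BiP, the main Hsp70 chaperone of the compartment and the usual readout of the response. It read 13.97, 14.06 and 13.90 in S116A and 13.76, 13.86 and 13.74 in S116D. Each S116D array lay below each S116A array, yet the difference of -0.19 ± 0.07 did not pass (limma adjusted p = 0.14). The dimmer HSPA5 probe set, at 9.27, 9.36 and 9.17 against 8.95, 8.93 and 8.74, did, and fell by 0.39 ± 0.09 (0.029). HSP90B1, the Hsp90 paralogue GRP94, differed by -0.13 and -0.26 on the probe sets used here, both of a type that can read related sequences, and neither was called. Further HSP90B1 probe sets were left out because the annotation names another gene beside it.

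CANX, the membrane lectin calnexin, leaned the other way. On its brightest probe set the S116A arrays read 14.03, 14.08 and 14.03 and the S116D arrays 14.25, 14.22 and 14.17, which do not overlap, with a difference of 0.17 that was not called (limma adjusted p = 0.11). The third CANX probe set by signal rose by 0.44 ± 0.10 (0.028), from 11.29, 11.29 and 11.27 to 11.52, 11.79 and 11.85, and 4 of its 5 probe sets had positive differences. CANX was called with the array sets as a block (0.18, 0.024) and above the median signal (0.034). It was also called on the median of its probe sets (0.44, 0.022). On every array that median is the called probe set that rose by 0.44 ± 0.10, so this call is not separate evidence. CALR, the soluble lectin calreticulin, differed by -0.13 to -0.003 over its 3 probe sets with overlapping lines. Both lectins act in the same folding cycle, and the difference between them was not tested.

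The oxidoreductases PDIA3, PDIA4 and PDIA6, which form and rearrange disulfide bonds, differed by -0.16, -0.10 and -0.07 on their brightest probe sets, and no probe set of theirs was called by limma. Only the PDIA3 value had an unadjusted p under 0.05, at 0.041. HYOU1, an exchange factor of BiP, differed by -0.003 (95% interval -0.26 to 0.26). DNAJB11, another J-domain co-chaperone, differed by -0.11 and the secreted stress protein MANF by 0.05. CRELD2, also secreted under stress, read 11.39, 11.50 and 11.51 in S116A and 11.13, 11.28 and 11.21 in S116D, a difference of -0.26 with separate lines (limma adjusted p = 0.089). It was called with the array sets as a block (-0.29, 0.013) but stayed uncalled under 14 of 16 alternatives. SDF2L1, a partner of the J-domain proteins, lay the other way, at 9.78, 10.05 and 10.24 against 10.24, 10.42 and 10.48, a difference of 0.36 (0.14).

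The degradation genes, which retrieve misfolded protein for the proteasome, had no called member of 3 by limma, although 2 had an unadjusted p under 0.05. EDEM1, which marks glycoproteins for removal, came nearest, at 10.74, 10.71 and 10.71 in S116A against 10.41, 10.47 and 10.48 in S116D. Its difference of -0.27 exceeded the spread within either line, and its limma adjusted p was 0.056. It was called with the array sets as a block (0.015) and under other alternatives, at limma adjusted p between 0.022 and 0.045, and stayed uncalled under 10 of 16. HERPUD1, a scaffold of the retrieval complex, differed by 0.28 (limma adjusted p = 0.11), and SEL1L, its adaptor, by 0.19 (0.27), with all 4 SEL1L probe sets positive.

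Genes with an ERSE or ERSE-II match near their start did not share a direction. None of these 10 (HSPA5, HSP90B1, HYOU1, SDF2L1, CRELD2, CALR, CANX, PDIA6, HERPUD1 and XBP1) was called on its brightest probe set by limma. A limma unadjusted p under 0.05 was reached by 5 of the 10, a larger share than the 4667 of all 19775 genes. The differences of the 10 ran from -0.26 for CRELD2 to 0.36 for SDF2L1, with a median of -0.01. Of the 10 endoplasmic reticulum genes with a window and a value but no match, 3 were called (DNAJB9, DNAJC3 and EIF2AK3), with a median of -0.02. A limma unadjusted p under 0.05 was reached by 4 of those without a match. The background of calls was 11.0% over all genes and 17.0% above the median signal. With the array sets as a block CRELD2 and CANX with a match were called, and EDEM1 was added to those without. Calls over all genes then rose from 2166 to 3899. With the replicate number as a block HSPA5, SDF2L1, CRELD2 and HERPUD1 with a match were called, and EDEM1 was again added to those without. Calls over all genes were 3451 in that fit. The difference between these counts was not tested, and the absence of the letters from a window says nothing of the factors that act on the gene.

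**Figure D2:**
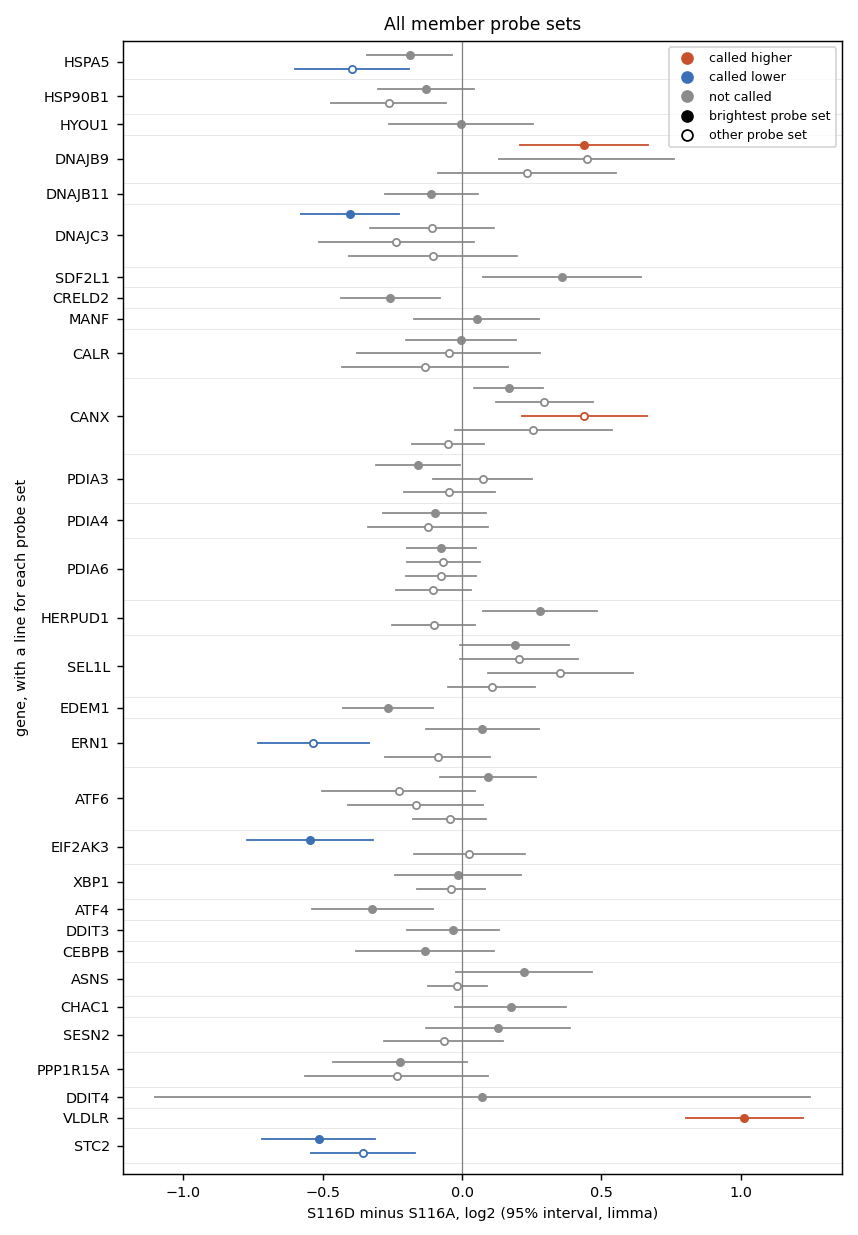
Difference between the lines (S116D minus S116A, log2) for each of the 65 member probe sets, with limma's 95% interval. Filled points are the brightest probe set of a gene and open points its others. Called probe sets are coloured, 3 higher and 6 lower, and ERN1, CANX and HSPA5 are genes whose called probe set is an open point.

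Over all 65 probe sets 9 were called (background 8.55%), 3 higher (background 4.36%) and 6 lower (4.19%), in 8 genes. Both STC2 probe sets were among them, and no gene was called in both directions. Of the 19 members with over 1 probe set, 11 had all their differences on the same side of 0. The plot of all member probe sets shows where they part, as for ERN1, ATF6 and EIF2AK3.

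In the ATF4-CHOP class 1 gene rose (background 6.13% of all genes), 1 fell (4.82%) and 8 were not called. The factors came first. ATF4, the activator itself, read 12.31, 12.00 and 12.29 in S116A and 11.87, 11.91 and 11.86 in S116D, so the lines were separate but S116A 2 stood close to the S116D arrays. The difference was -0.32 ± 0.10 (SE) and was not called (limma adjusted p = 0.082). Without S116A 2 it was -0.42 and was called (0.024), as it was with the array sets as a block (-0.35, 0.023). Under 13 of 16 alternatives ATF4 stayed uncalled. Over all 16 its difference ran from -0.42 to -0.27, with limma adjusted p up to 0.25. DDIT3, which encodes CHOP, read 9.33, 9.39 and 9.37 against 9.27, 9.39 and 9.32, overlapping, with a 95% interval of the difference from -0.20 to 0.13. CEBPB, a bZIP factor that pairs with both, read 11.52, 11.58 and 11.32 against 11.52, 11.21 and 11.29, overlapping, and differed by -0.13 (limma adjusted p = 0.62). None of these 3 factors was called by limma, and 1 had an unadjusted p under 0.05.

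**Figure D3:**
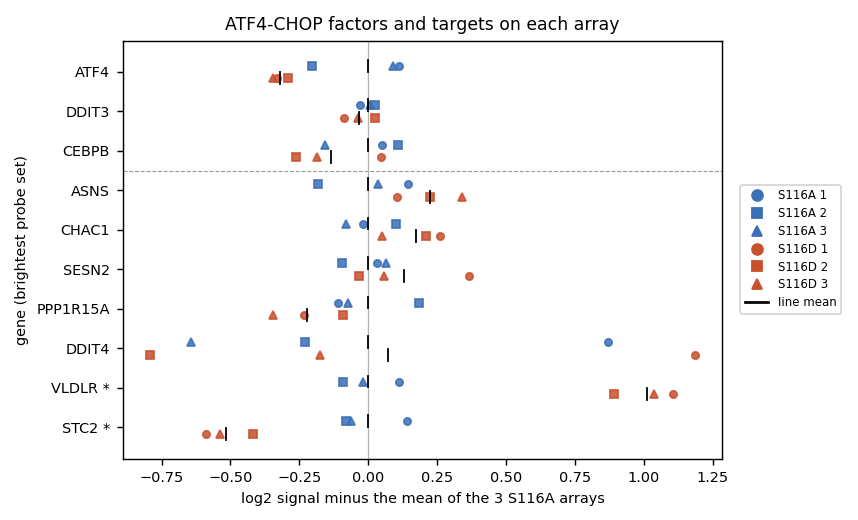
Log2 signal of the 10 ATF4-CHOP genes on each array, minus the mean of the 3 S116A arrays, drawn as in the plot of endoplasmic reticulum genes, with a dashed line between factors and targets. VLDLR stands about 1 to the right and STC2 to the left of its S116A arrays, and the replicate 1 arrays of both lines lie far to the right for DDIT4.

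VLDLR and STC2, the called targets, moved in opposite directions. VLDLR, the very low density lipoprotein receptor, read 9.69, 9.49 and 9.56 in S116A and 10.68, 10.47 and 10.62 in S116D. It rose by 1.01 ± 0.09 (SE), or 2.02-fold (limma adjusted p = 4.4e-04), and was the only member to differ at least 2-fold. By size of rise it stood at place 188 among 19775 genes. STC2, a secreted glycoprotein hormone that limits calcium entry, read 9.12, 8.90 and 8.92 in S116A and 8.39, 8.56 and 8.44 in S116D. It fell by 0.51 ± 0.09, or 1.43-fold (0.0089), and its second probe set fell by 0.36 ± 0.08 (0.031), from 8.01, 7.99 and 7.88 to 7.48, 7.60 and 7.73. For both genes the gap between the lines exceeded the spread within either, and both kept their call under every alternative run. VLDLR was read by 1 probe set, so the alternatives that change probe sets left its values as they were.

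VLDLR, STC2 and DDIT4 are also known to respond to low oxygen, so hypoxia targets are given beside them. Of the 13 on this list, ENO2 alone was called on its brightest probe set (higher, by 0.68, background 6.13%). Of the differences 10 were negative, and the median was -0.14. The list leaves out NDRG1 (-0.94, called) and VEGFA (-0.16, not called), which were placed among the ATF4 targets. CA12 (-0.46), BNIP3 (-0.33) and ADM (-0.32) had the lowest values, none called. The part of hypoxia in the VLDLR and STC2 values was not tested.

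DDIT4, also called REDD1, restrains mTORC1. It read 12.94, 11.84 and 11.43 in S116A and 13.25, 11.28 and 11.90 in S116D. Replicate 1 was the highest array of each line, by 1.31 and 1.67 over the mean of the other arrays of its line, while the lines overlapped. Its spread within lines (pooled SD 0.90) was the largest of all 19775 genes, against a median of 0.096, and the 95% interval of its difference, 0.07, ran from -1.10 to 1.25, so neither a 2-fold rise nor a 2-fold fall can be told from no difference. The GAPDH 3′ minus 5′ difference (log2) was 0.73 and 0.79 on the replicate 1 arrays, 0.78 on S116A 2 and 0.65, 0.70 and 0.71 on the other arrays, so S116D 1 was the highest of all 6. The ACTB difference was 2.33 and 2.44 on the replicate 1 arrays and 2.27 to 2.47 on the others. Whether replicate 1 denotes a shared culture or handling step is not given by the labels, and the source of the spread was not tested.

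The other targets stayed within small differences. ASNS, asparagine synthetase and the textbook amino acid response gene, read 10.58, 10.25 and 10.47 against 10.54, 10.66 and 10.78, overlapping, with a difference of 0.22 (limma adjusted p = 0.31). CHAC1, which degrades glutathione and is among the most inducible ATF4 targets, differed by 0.17 (0.34). SESN2, a leucine sensor of the mTORC1 pathway, differed by 0.13 and -0.07 on its probe sets. PPP1R15A (GADD34), the subunit that returns eIF2 to its unphosphorylated state, differed by -0.22 and -0.23, neither called. The 2 carriers of a CARE match in this class, ASNS and CHAC1, thus had positive differences on their brightest probe sets that did not pass. The dim second ASNS probe set differed by -0.02. HERPUD1, the carrier in the endoplasmic reticulum class, differed by 0.28 on its brightest probe set and was not called.

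Further genes of these pathways, from lists drawn up with earlier results of these data known, showed where calls did and did not fall. Among 33 other folding, translocation and degradation genes 3 rose and 2 fell, with a median of -0.03. For this and the lists below the background was 6.13% of all genes higher and 4.82% lower. Above the median signal 17.0% of genes were called in either direction. The BiP exchange factor SIL1 rose by 0.61 ± 0.07 (limma adjusted p = 0.0019), the retrieval receptor KDELR3 by 0.54 (0.0026) and DERL3 by 0.34 (0.033). UFM1, a ubiquitin-like modifier, fell by 0.55 (0.0075) and the retrotranslocation gene DERL1 by 0.40 (0.010). Of 13 other sensors, eIF2 kinases and factors 2 fell and 11 were not called. These were MBTPS1, the protease that first cleaves ATF6, by 0.88 ± 0.11 (0.0023), and PPP1R15B, the constitutive counterpart of PPP1R15A, by 0.38 (0.016). The 3 other eIF2 kinases, EIF2AK1, EIF2AK2 and EIF2AK4, differed by -0.07, 0.08 and 0.26, none called.

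**Figure D4:**
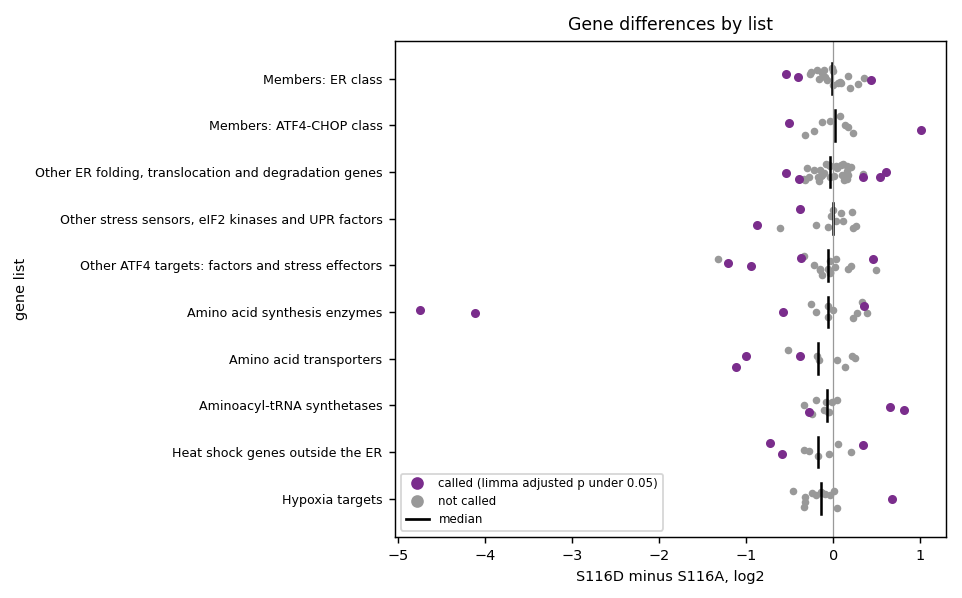
Differences between the lines (S116D minus S116A, log2) of single genes, by list, on each gene's brightest probe set. Purple points are called, grey points are not, and black bars are list medians, which lie between -0.18 and 0.02. The far-left points are BCAT1 and CTH.

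Genes of the ATF4 programme beyond the members were called in both directions. Of 19 other factors and stress effectors TRIB3 rose and CEBPG, NDRG1 and GADD45A fell. TRIB3, a pseudokinase that restrains ATF4 and CHOP, rose by 0.45 ± 0.08 (limma adjusted p = 0.0080) on 1 of 2 probe sets, and CEBPG, a dimer partner of ATF4, fell by 0.37 (0.031). ATF3 had separate lines, at 10.06 ± 0.81 against 8.74 ± 0.39 (SD, n = 3 each), a difference of -1.33 that did not pass (0.063). Of 13 amino acid synthesis genes PYCR1 rose and BCAT1, CTH and PSPH were lower, by -4.75, -4.12 and -0.58, while PSAT1 (0.27, 0.079) did not pass. BCAT1, which transfers amino groups of branched-chain amino acids, and CTH, which makes cysteine, thus differed far more than any member.

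Of 10 amino acid transporters 3 fell (background 4.82% of all genes) and 7 were not called, with a median of -0.18. SLC7A5 and SLC3A2, the light and heavy chains of the leucine exchanger, both fell. SLC7A5 fell by 1.12 ± 0.08 (limma adjusted p = 1.1e-04), from 14.38 to 13.26, and SLC3A2 fell from 13.16 to 12.16 (0.0020). SLC38A2, which imports glutamine and other neutral amino acids, fell by 0.38 (0.012). SLC7A11, the cystine exchanger, differed by 0.21 (0.72) on its brightest probe set, while 1 of its 3 probe sets was called. In a list of 12 genes, aminoacyl-tRNA synthetases and the tRNA exporter XPOT, WARS1 (0.82) and LARS1 (0.65) rose and CARS1 (-0.28) fell. Heat shock genes outside the endoplasmic reticulum, cytosolic except for the mitochondrial chaperonins HSPD1 and HSPE1, had 1 of 9 higher, HSPA4 (0.34), and 2 lower, the co-chaperone BAG3 (-0.73) and HSPH1 (-0.59).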

How the data were processed

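The table the authors deposited holds 1 value per probe set for each of the 6 arrays, taken as log2 signal from its range and nearly equal quartiles. Per the submitters' processing notes MAS5 and RMA were used, in roles not stated. The sources used here give no versions or filters. The number of arrays limits precision. Control probe sets (62) were left out. GEO's platform annotation, updated through RefSeq gene identifiers (41037 of 41091 probe sets with 1 gene), named the genes, and each gene is read where its mean signal was highest.

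Titles gave the groups. Limma 3.58.1 in R 4.3.3 (lmFit, eBayes with intensity trend, no covariate) tested the lines, adjusted by Benjamini-Hochberg over all 54613 probe sets at 0.05, and was tested on simulated data, where somewhat more of its calls were false than the threshold allows. Errors and intervals are its moderated ones. Exact permutation of 3 against 3 arrays cannot go below 0.1 and was not used.

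The members, lists and tests were chosen with earlier results of these data known. All 32 members are named, with every array for members with a called probe set, sensors and factors. Up to 4 called genes of each other list, those with the smallest adjusted p, are named, or the 2 brightest where none was called, and TRIB3, ATF3, PSAT1 and SLC7A11. Further list genes and arrays were chosen after their values were seen. Alternatives were quantile normalization, median centring, a signal filter, eBayes without trend, blocks, array weights, gene-level fits, other probe set rules and leaving out each array.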

Additional observations from a re-analysis of the deposited data

How the results depend on the processing

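VLDLR and STC2 were the called members that kept their call under all 16 alternatives, and 19 of the 26 uncalled members were called under none. Members with 1 probe set, VLDLR among them, keep the same values under the probe set rules. Of 496 gene and alternative pairs 468 kept direction where called and side of the threshold, 10 lost a call, 18 gained one and none of the called values reversed. The count of endoplasmic reticulum genes higher (1) was 2 above the median signal, 2 with the array sets as a block, 2 with array weights and 0 with unshared probe sets preferred by limma (2 at an unadjusted p under 0.05), and ran from 0 to 1 when single arrays were left out, as DNAJB9 lost its call. On the per-gene median of probe sets it stayed 1, but CANX gained a call and DNAJB9 lost its own. The count lower (2) was 4 with the array sets as a block, 1 on the per-gene median of probe sets, and 1 to 2 without single arrays. On that median the gene called lower was EDEM1, and DNAJC3 and EIF2AK3 lost their calls. For ATF4-CHOP genes the count higher was 1 throughout, and the count lower (1) was 2 with the array sets as a block, through ATF4, and 1 to 2 without single arrays.

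Replicate numbers were shared by the lines, but deviations of same-numbered arrays from their line means correlated at 0.45, -0.04 and 0.44, so the numbers were not taken as pairs. With the replicate number as a block 3 endoplasmic reticulum genes were higher (DNAJB9, SDF2L1, HERPUD1), 5 lower (HSPA5, DNAJC3, CRELD2, EDEM1, EIF2AK3) and 2 ATF4-CHOP genes lower (ATF4, STC2), and genes called over all rose from 2166 to 3451. With the array sets as a block genes called over all rose to 3899. Scaling moved the median of all genes by less than 0.1. No detection calls were used, so signal over background cannot be judged for dim probe sets.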

Other observations

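DDIT4 headed a short list of genes with a wide spread within the lines, chosen after their values were seen. INHBA, an activin subunit, came next (pooled SD 0.89) and had its lowest arrays where DDIT4 had its highest, with replicate 1 at 8.23 in S116A and 8.25 in S116D against 8.67 to 10.44 on the other arrays. TRIM22 (0.81), the immediate-early gene EGR1 (0.80) and PTPRO (0.80) followed. For EGR1 and PTPRO, S116A 1 was the lowest array of its line, at 9.52 and 10.30, and S116D 1 the highest of its own, at 11.77 and 11.81. Over the 10 genes with the widest spread, replicate 1 lay on the same side of the other arrays in both lines for 8, TRIM22 among them, and on opposite sides for 2, EGR1 and PTPRO.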
